A study of Homo sapiens with 16 samples.

Results

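The genes described here are the 250 protein-coding genes of human chromosome 19 whose symbol is ZNF followed by a number, out of 19970 protein-coding genes of chromosomes 1 to 22 and X. They were chosen by symbol and chromosome, a rule that uses no measured value, but with earlier results of these data known. The 1201 other protein-coding genes of chromosome 19 and the 267 ZNF genes of other chromosomes were set beside them. The list includes 3 readthrough entries (ZNF559-ZNF177, ZNF816-ZNF321P and ZNF765-ZNF761) and ZNF470-DT, which overlap their neighbours.

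Open chromatin was mapped by ATAC-seq, in which the transposase Tn5 inserts adapters where DNA is accessible, in IMR90, a line of human lung fibroblasts. All of them carried, by retroviral infection, △B-RAF:ER, an oncogenic Raf kinase fused to the estrogen receptor that the drug 4-hydroxy-tamoxifen switches on, and active Raf drives fibroblasts into oncogene-induced senescence (OIS). Raf-activated and Raf-inactivated cells were each kept in hypoxia, with 0.5% oxygen, or in normoxia, which gives 4 groups of 4 libraries. The labels do not say what the Raf-inactivated cells received in place of the drug, how long the treatments lasted, or whether replicates were separate cultures. Spread between libraries, on which the p-values rest, may thus be technical. The study asked how hypoxia affects chromatin accessibility in OIS.

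Most ZNF genes encode proteins with arrays of C2H2 zinc fingers that bind DNA, and many on chromosome 19 also carry a KRAB domain. KRAB zinc finger proteins recruit the corepressor KAP1 (gene TRIM28), which brings the methyltransferase SETDB1 and heterochromatin protein HP1 to their targets, many of them retrotransposons. ZNF genes lie in tandem clusters that grew by duplication, and the parts of their bodies that encode the fingers often carry the heterochromatin mark H3K9me3 themselves.

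A locus is the gene body with 10 kb on each side, and its value is the number of distinct peaks of a library with a summit there. Promoters of 5 genes are shown because the results below turn on them. They run from 250 bases before to 50 bases after the gene start, 5′ to 3′ on the gene's strand, from RefSeq GRCh38.p14. ZNF91 and ZNF208 are paralogs with like promoters of which one start had a peak in 16 of 16 libraries and the other in 0. ZNF780B had the most negative interaction of Raf and hypoxia. ZNF599 leads the named falls with Raf in normoxia, and ZNF536 was the one gene whose start gained a peak. Capitals mark a match to one of the 4 searched motifs.
ZNF91, chr19:23395422-23395721, minus strand: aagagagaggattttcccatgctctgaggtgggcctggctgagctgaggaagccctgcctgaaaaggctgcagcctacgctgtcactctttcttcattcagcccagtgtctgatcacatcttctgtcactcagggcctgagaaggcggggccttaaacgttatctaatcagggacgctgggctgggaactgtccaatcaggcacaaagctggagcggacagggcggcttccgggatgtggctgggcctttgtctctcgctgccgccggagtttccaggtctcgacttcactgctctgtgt
ZNF208, chr19:22010894-22011193, minus strand: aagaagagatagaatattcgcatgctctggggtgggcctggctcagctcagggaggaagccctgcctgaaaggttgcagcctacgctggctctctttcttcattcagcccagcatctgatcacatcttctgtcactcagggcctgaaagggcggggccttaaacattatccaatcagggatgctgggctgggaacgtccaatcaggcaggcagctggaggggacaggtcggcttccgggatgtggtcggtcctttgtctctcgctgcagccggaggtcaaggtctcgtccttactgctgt
ZNF780B, chr19:40056182-40056481, minus strand: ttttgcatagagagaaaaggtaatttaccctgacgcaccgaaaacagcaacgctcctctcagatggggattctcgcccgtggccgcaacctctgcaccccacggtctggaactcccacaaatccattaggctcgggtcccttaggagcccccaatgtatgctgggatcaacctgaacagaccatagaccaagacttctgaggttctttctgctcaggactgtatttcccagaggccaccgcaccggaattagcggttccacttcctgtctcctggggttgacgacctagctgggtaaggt
ZNF599, chr19:34773166-34773465, minus strand: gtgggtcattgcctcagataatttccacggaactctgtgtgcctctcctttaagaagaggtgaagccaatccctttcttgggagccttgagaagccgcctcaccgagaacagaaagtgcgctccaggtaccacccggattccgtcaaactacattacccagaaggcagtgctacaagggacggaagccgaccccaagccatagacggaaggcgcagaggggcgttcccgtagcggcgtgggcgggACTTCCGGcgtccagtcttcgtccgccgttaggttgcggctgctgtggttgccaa
ZNF536, chr19:30225342-30225641, plus strand: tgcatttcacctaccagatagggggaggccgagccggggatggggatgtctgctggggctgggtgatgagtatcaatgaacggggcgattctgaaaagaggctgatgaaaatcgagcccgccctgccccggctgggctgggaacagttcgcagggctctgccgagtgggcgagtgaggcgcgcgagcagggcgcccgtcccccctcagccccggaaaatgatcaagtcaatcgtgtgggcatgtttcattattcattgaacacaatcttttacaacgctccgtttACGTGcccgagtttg
The ZNF91 and ZNF208 promoters were identical at 86.0% of 307 aligned columns, whereas ZNF91 and ZNF780B were identical at 52.1% of 336. How the authors treated reads that match several paralogs is not given in the sources used here, so peaks in near-identical copies are uncertain. The letters CCGGAAGT, the core of many ETS factor sites, were searched on both strands, and ZNF599 holds them on the opposite strand. They occurred in 45 of the 219 ZNF promoters of chromosome 19 that RefSeq's table gave (20.5%), against 4.45% of 966 other chromosome 19 promoters and 6.19% of all 15811. ZNF promoters of other chromosomes held them in 13.8% of 218. The letters TGANTCA (AP-1) were found in 7.31% of chromosome 19 ZNF promoters against 5.76% of all, ACGTG (part of the HIF site, present in ZNF536) in 18.3% against 23.7%, and the NRF1 motif in 12.3% against 8.58%. No promoter shown holds overlapping matches. Of the 208 ZNF promoters with a start peak in every library, 21.2% held CCGGAAGT, and 1 of the 5 with a peak in none did.

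Each library had between 169287 and 206757 distinct peaks. The files hold no read totals, and the background pileup recovered from each list stands in for depth. It was 6.53 to 8.33 in Raf-active hypoxia, 4.60 to 5.02 in Raf-inactive hypoxia, 6.09 to 7.10 in Raf-active normoxia and 3.01 to 3.50 in Raf-inactive normoxia. Background and Raf state therefore move together. Totals, positions, cluster counts, numbers of called loci and of gained or lost regions are also given on lists thinned to a matched depth, as are single loci whose printed call was lost there. Gene starts, region ranks and the KAP1 genes are given on full lists only, and the part of depth in these was not tested. Of 8 fibroblast markers, 6 had a peak at a gene end in every library, COL3A1 had one in 1 Raf-active hypoxia, 1 Raf-inactive hypoxia, 1 Raf-active normoxia and 4 Raf-inactive normoxia libraries, and THY1 in 0. Epithelial markers had one in every library for 3 of 6 genes, endothelial for 1 of 5 and blood for 3 of 5. CDH1, an epithelial cadherin, had one in 0 Raf-active and 5 Raf-inactive libraries, the endothelial genes PECAM1, CDH5 and VWF in 1 library each, and the leukocyte gene PTPRC in 3. The part of other cell types in the results was not tested. In a bulk library a site open in fewer cells and a site less open in each cell cannot be told apart.

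Raf-active libraries held more peaks in ZNF loci, and these made up a smaller share of the peaks in all chromosome 19 loci. In normoxia, ZNF loci held 860, 855, 788 and 826 peaks in the Raf-active libraries against 543, 543, 544 and 546 in the Raf-inactive ones. In hypoxia they held 693, 692, 725 and 703 peaks in Raf-active libraries against 515, 517, 507 and 520 in Raf-inactive ones. Neither pair of groups overlapped. At matched depth the libraries held 675 to 712 peaks in Raf-active normoxia against 524 to 529 in Raf-inactive normoxia, and 602 to 617 in Raf-active hypoxia against 483 to 491 in Raf-inactive hypoxia. As a share of all peaks in chromosome 19 loci, ZNF loci took the following parts, with no test made of them: 12.7 ± 0.154% in Raf-active hypoxia, 14.5 ± 0.132% in Raf-inactive hypoxia, 13.2 ± 0.0728% in Raf-active normoxia and 14.3 ± 0.115% in Raf-inactive normoxia (SD, n = 4 each). The share was thus lower with Raf active under either oxygen level, and no Raf-active library reached a Raf-inactive one. Matched in depth, the shares were 13.0% in Raf-active hypoxia, 14.8% in Raf-inactive hypoxia, 13.1% in Raf-active normoxia and 14.5% in Raf-inactive normoxia. Over the 16 libraries a ZNF locus held a median of 2.79 scaled peaks, against 4.79 for other chromosome 19 loci, although its gene was longer (median 23.3 kb against 12.7 kb).

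The added peaks with Raf lay away from the gene starts. Of 219 starts, 208 had a peak in all 16 libraries, so the number of peaks could hardly rise there. Whether these starts became more open was not tested. Within 1 kb of the start of the 219 ZNF genes with a known strand, libraries held 234 ± 2.06 peaks in Raf-active normoxia and 232 ± 3.5 in Raf-inactive normoxia (SD, n = 4 each). In hypoxia they held 236 ± 3 with Raf active and 232 ± 2.94 with Raf inactive. These groups overlapped. In the 10 kb downstream of the gene end, Raf-active normoxia had 158 ± 12.3 peaks and Raf-inactive normoxia 64.5 ± 1.91, a ratio of 2.45. The body past its midpoint, where the finger-coding exon of these genes usually lies, had 142 ± 9.06 against 67.8 ± 2.06 peaks, a ratio of 2.10. The upstream flank had a ratio of 2.06 and the body up to its midpoint 1.41. Matched in depth, the same ratios were 1.87 downstream, 1.65 past the midpoint, 1.65 upstream and 1.25 up to the midpoint, and 0.998 at the starts. In other chromosome 19 loci the ratios on full lists were 1.90 downstream, 2.06 past the midpoint, 1.78 upstream, 1.69 up to the midpoint and 1.12 at the starts. Matched in depth, those were 1.70, 1.74, 1.62, 1.51 and 1.08. The ZNF ratio past the midpoint thus lay above that of other loci on full lists and below it at matched depth.

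**Figure D1:**
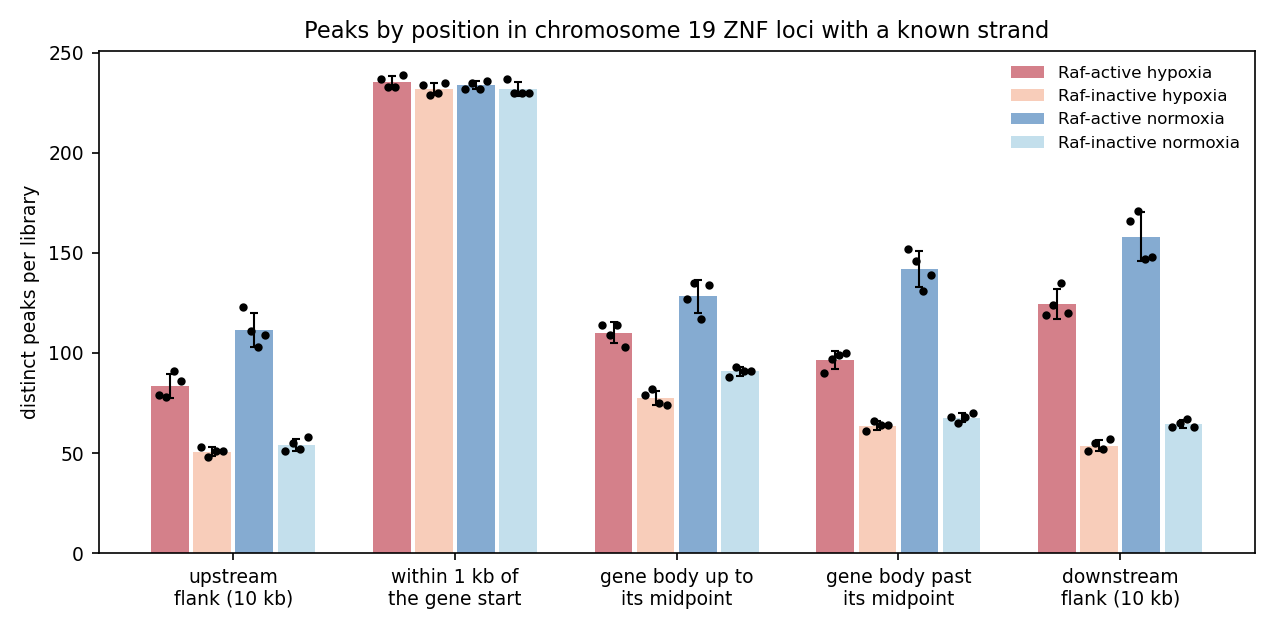
Distinct peaks per library (y axis) in 219 chromosome 19 ZNF loci, by position along the gene (x axis), with no scaling, as means of 4 libraries (bars) with the SD (error bars) and each library (points). The starts hold about the same number in all 4 groups, while the other positions hold more in Raf-active than in Raf-inactive cells, with 158 against 64.5 downstream in normoxia.

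With Raf active, libraries of hypoxic cells held fewer of these peaks than those of normoxic cells. The body past its midpoint had 96.5 ± 4.51 peaks in hypoxia and 142 ± 9.06 in normoxia, a ratio of 0.680, and the downstream flank 125 ± 7.33 against 158 ± 12.3, a ratio of 0.788. The groups did not overlap at either position. At matched depth these ratios were 0.750 and 0.784. Other chromosome 19 loci had ratios of 0.809 and 0.872 on full lists and 0.807 and 0.867 at matched depth. As a share, peaks near starts made up 36.2 ± 1.10% of ZNF locus peaks in Raf-active hypoxia, 48.6 ± 0.576% in Raf-inactive hypoxia, 30.3 ± 1.27% in Raf-active normoxia and 45.6 ± 0.811% in Raf-inactive normoxia (SD, n = 4 each).

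ZNF starts were open in nearly every library. A peak lay within 1 kb of the start of 208 of the 219 genes in all 16 libraries (95.0%), against 591 of 966 other chromosome 19 genes (61.2%). The starts of 5 ZNF genes, ZNF208, ZNF404, ZNF534, ZNF556 and ZNF723, had a peak in 0 libraries, against 211 other genes. One ZNF start was gained with Raf in normoxia, that of ZNF536, which encodes a repressor of neuronal differentiation. Its start had a peak in 4 of 4 Raf-active hypoxia, 1 of 4 Raf-inactive hypoxia, 4 of 4 Raf-active normoxia and 0 of 4 Raf-inactive normoxia libraries. No ZNF start was lost in any of the 4 comparisons. Among the other chromosome 19 genes, 26 starts were gained with Raf in normoxia and 0 lost.

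Changes per locus were tested with limma on log2 of the scaled number of peaks plus 1, where each library was scaled to the same total over all loci, and called at a Benjamini-Hochberg adjusted p below 0.05. The 117 ZNF loci with a mean of at least 3 scaled peaks were tested among 15138 loci. ZNF234 was just inside this limit with a mean of 3.01 and ZNF776 just outside with 2.98. Among the loci named below, ZNF333, ZNF780B, ZNF587, ZNF91, ZNF20, ZNF8 and ZNF555 passed it only with Raf-active normoxia counted. Over the other groups their mean was below 3. Leaving out either hypoxia group likewise took ZNF91 and ZNF233 below 3, and leaving out either Raf-inactive group took ZNF582 below it. ZNF304 passed only with Raf-inactive normoxia counted. SMARCAD1, a KAP1 gene named below, passed only with Raf-inactive hypoxia counted. Changes of these loci that involve such a group are therefore not independent of the limit. Of the 133 loci below it, 7 had no peak in any library: ZNF98, ZNF99, ZNF208, ZNF676, ZNF723, ZNF728 and ZNF729. Between 23.4% and 26.0% of the peaks in ZNF loci lay in more than 1 of them, so neighbouring loci are not independent.

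With Raf in normoxia, 60 of 117 ZNF loci rose (51.3%) and 11 fell (9.40%), where 37.2% of all tested loci rose and 25.9% fell. Of 904 other chromosome 19 loci, 530 rose (58.6%) and 53 fell, and of 184 ZNF loci on other chromosomes 72 rose (39.1%) and 40 fell. The median log2 change was 0.28 for chromosome 19 ZNF loci, 0.35 for other chromosome 19 loci, 0.12 for ZNF loci elsewhere and 0.10 for all loci. The direction of the family depends on the scaling. Scaled to chromosome 19 alone, 27 ZNF loci rose and 35 fell with a median of −0.09 while the median of all loci was −0.29, and unscaled 87 rose and 5 fell with a median of 0.50 while that of all loci was 0.33. The ZNF median lay above that of all loci under each scaling. A change of scaling moves all loci nearly alike, so it could hardly alter this order, which is no separate support. At matched depth 52 of 98 ZNF loci rose and 8 fell, where 38.3% of all loci rose and 25% fell, and with no filter on low values 106 of 243 rose and 44 fell, where 35.5% and 26.9% of all loci did.

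**Figure D2:**
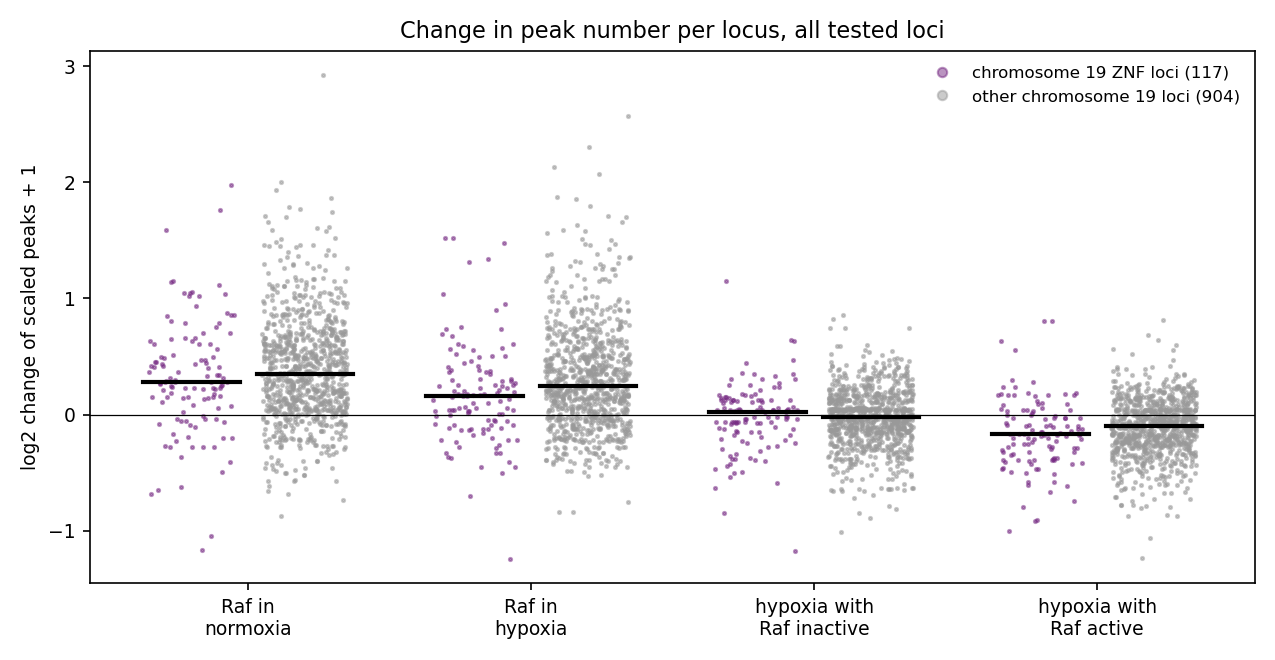
Log2 change of the scaled number of peaks plus 1 (y axis) in 4 comparisons (x axis) for the 117 tested chromosome 19 ZNF loci and 904 other tested chromosome 19 loci, with each point a locus and black lines the medians. With Raf in normoxia the medians lie at 0.28 and 0.35, but at −0.09 and −0.03 with scaling to chromosome 19 alone, and with hypoxia in Raf-active cells at −0.17 and −0.10.

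The largest rise was at ZNF333, a KRAB zinc finger gene at chr19:14689787-14733742, outside the clusters. It had 9, 8, 8 and 7 peaks in Raf-active normoxia against 1 in each Raf-inactive normoxia library, a log2 change of 1.98 ± 0.10 (SE; limma, adjusted p = 6.58e-11). The 1 peak in Raf-inactive cells was that at the gene start, and the groups were far apart. The regions that appeared in 4 of 4 Raf-active and 0 of 4 Raf-inactive normoxia libraries lay 34.9, 42.6, 43.8 and 53.2 kb from the start, towards and beyond the gene end.

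ZNF780B, in a cluster of 3 genes, had 7, 7, 7 and 6 peaks in Raf-active normoxia against 1 in each Raf-inactive normoxia library (log2 change 1.77 ± 0.11, adjusted p = 8.27e-10, limma). Its gained regions flanked the gene, at −5.97, −8.58 and −9.10 kb, which is upstream of the start, and at 30.3 kb. ZNF587 had 6, 9, 10 and 9 peaks against 2, 1, 2 and 2 (1.59 ± 0.15, adjusted p = 1.48e-07, limma), again without overlap. ZNF20 (8, 7, 7 and 7 peaks against 2, 2, 3 and 2) and ZNF121 (6, 6, 6 and 7 against 1, 2, 2 and 3) rose by 1.15 and 1.11.

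ZNF91, which encodes a repressor of SVA retrotransposons, had 4 peaks in every Raf-active normoxia library against 1 in every Raf-inactive normoxia library (log2 change 1.15 ± 0.09, adjusted p = 9.34e-09, limma). The start peak, on the promoter printed above, was in all 16 libraries. The added regions lay 73.2 and 77.2 kb into the gene and, upstream, at −7.01 kb.

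The largest falls were at ZNF599 and ZNF714. ZNF599 had 2 peaks in every Raf-active normoxia library against 6, 4, 4 and 6 in Raf-inactive normoxia (log2 change −1.17 ± 0.14, adjusted p = 1.70e-06, limma). Regions at 6.59 kb and −20.3 kb from the start of the promoter printed above, both inside the outer bounds of the gene, were in 0 Raf-active and 4 Raf-inactive normoxia libraries, while the start peak was in all 16. ZNF714 had 2, 2, 3 and 3 peaks against 6, 5, 5 and 5 (−1.04 ± 0.13, adjusted p = 2.91e-06, limma), and regions 9.95, 27.1 and 35.4 kb into the gene were in 0 Raf-active and 4 Raf-inactive libraries. The other falls named by the rule were ZNF846 (−0.68), ZNF787 (−0.65), ZNF233 (−0.49) and ZNF358 (−0.41). ZNF846 and ZNF787 turned to rises, of 0.34 and 0.30, when only peaks with a fold enrichment of at least 5 were counted, and ZNF358 was not called unscaled (adjusted p = 0.139, limma).

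**Figure D3:**
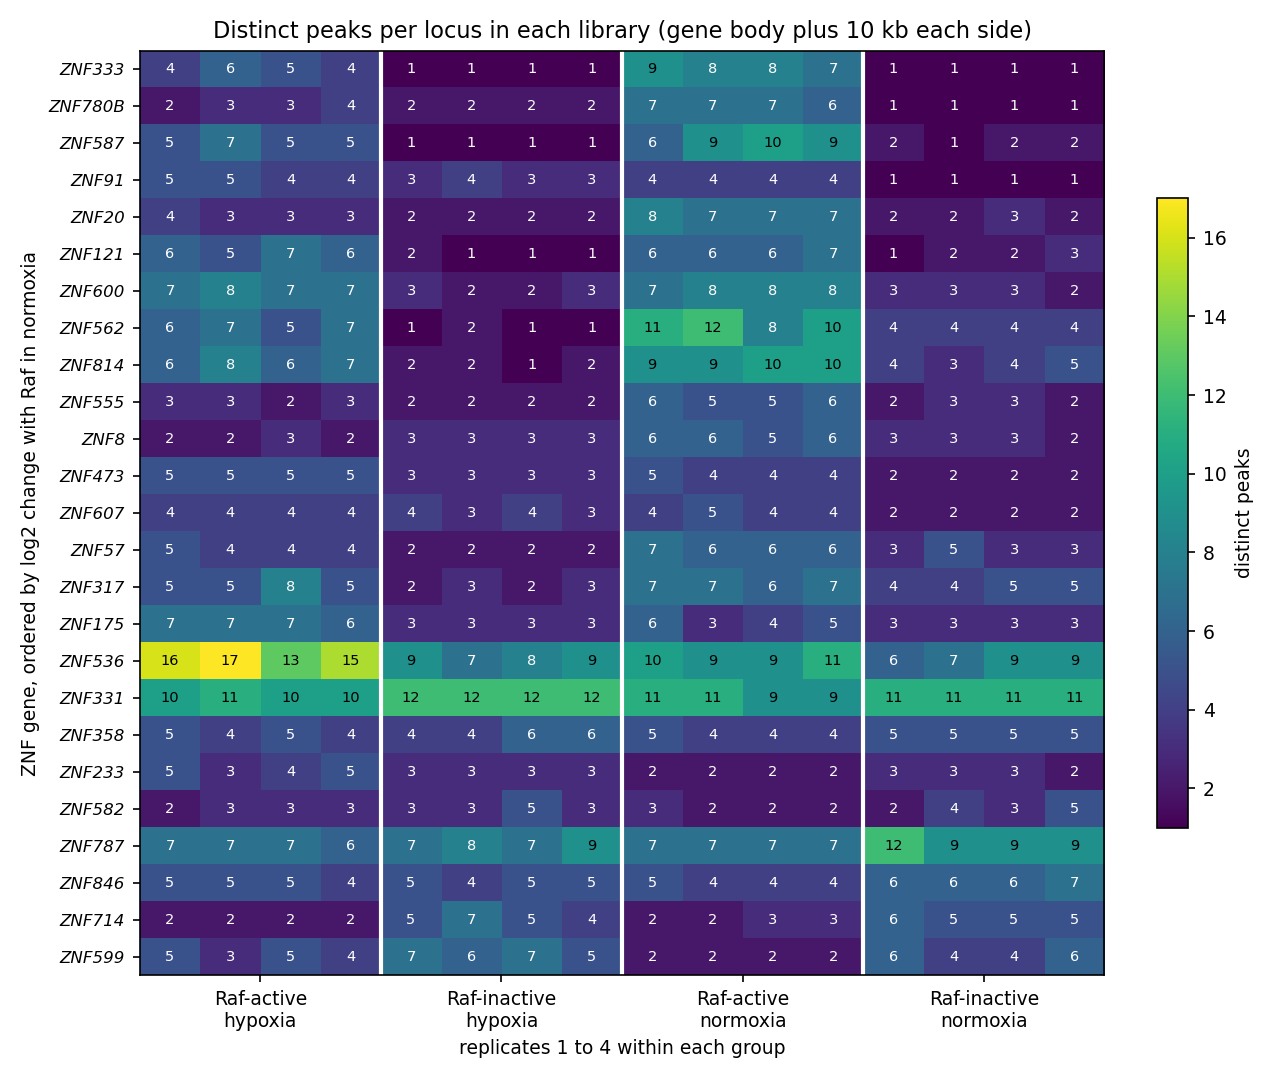
Distinct peaks in each of the 16 libraries (columns, grouped by condition, colour and number giving the unscaled count) at the ZNF loci with the largest called changes (rows, from the largest rise with Raf in normoxia to the largest fall). ZNF333 has 9, 8, 8 and 7 peaks in Raf-active normoxia and 1 in each Raf-inactive library, while ZNF714 has fewer peaks with Raf active under either oxygen level.

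With Raf in hypoxia, 40 of 117 ZNF loci rose (34.2%) and 15 fell (12.8%), where 33.5% of all tested loci rose and 26.6% fell. Of other chromosome 19 loci 444 rose (49.1%) and 74 fell. The median log2 change was 0.16 for ZNF loci, 0.25 for other chromosome 19 loci and 0.05 for all. Scaled to chromosome 19 alone, 18 rose and 47 fell with a median of −0.12, and unscaled 74 rose and 4 fell with a median of 0.37. The medians of all loci were then −0.25 and 0.29. Of the 117 loci, 32 rose with Raf at both oxygen levels (27.4%) and 8 fell at both (6.84%). The same held for 41.7% and 3.43% of other chromosome 19 loci and for 25.1% and 18.97% of all, so the share that rose at both was near that of all loci. At matched depth 38 of 98 ZNF loci rose and 6 fell, where 34.3% and 24.9% of all loci did, and with no filter 69 of 243 rose and 49 fell, where 32.4% and 26.9% did.

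ZNF562 rose the most in hypoxia, with 6, 7, 5 and 7 peaks in Raf-active against 1, 2, 1 and 1 in Raf-inactive libraries (log2 change 1.52 ± 0.14, adjusted p = 7.88e-08, limma). ZNF587 (5, 7, 5 and 5 against 1 in each) rose by 1.52, ZNF121 (6, 5, 7 and 6 against 2, 1, 1 and 1) by 1.48, and ZNF333 (4, 6, 5 and 4 against 1 in each) by 1.34. ZNF814 (1.32) and ZNF600 (1.04) were next, and none of these groups overlapped. ZNF714 fell the most, with 2 peaks in each Raf-active library against 5, 7, 5 and 4 (−1.24 ± 0.13, adjusted p = 4.88e-07, limma). The regions it lost in normoxia 27.1 and 35.4 kb into the gene were also in 0 Raf-active and 4 Raf-inactive hypoxia libraries. The other falls named by the rule were ZNF599 (−0.70), ZNF8 (−0.51), ZNF331 (−0.46), ZNF582 (−0.45) and ZNF787 (−0.41). ZNF8 had 2, 2, 3 and 2 peaks against 3 in each Raf-inactive library. Its regions at the start and 26.2 kb from it were in 4 of 4 libraries of both hypoxia groups. No other ZNF8 region was in a Raf-inactive hypoxia library, so no lost region accounts for this fall. The call of ZNF582 was lost without 9 of the 16 libraries taken singly, most of all without Raf-inactive hypoxia replicate 3 (−0.30, adjusted p = 0.178, limma), and that of ZNF787 at matched depth (−0.14, adjusted p = 0.309, limma).

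With hypoxia in Raf-inactive cells, 7 of 117 ZNF loci rose (5.98%) and 14 fell (11.97%), where 6.0% of all tested loci rose and 6.76% fell. The median log2 change was 0.03, against −0.02 for other chromosome 19 loci and 0.00 for all. ZNF91 had the largest rise, with 3, 4, 3 and 3 peaks in Raf-inactive hypoxia against 1 in each Raf-inactive normoxia library (1.15 ± 0.09, adjusted p = 2.40e-06, limma). The region 77.2 kb into the gene was in 3 of these hypoxia libraries and in all 8 Raf-active ones, whereas that at 73.2 kb was in 0 and 8. ZNF780B (2 peaks in each hypoxia library against 1 in each normoxia library, 0.64), ZNF607 (0.63) and ZNF473 (0.47), which encodes a part of the U7 machinery for histone mRNA processing, also rose. ZNF562 fell, with 1, 2, 1 and 1 peaks in hypoxia against 4 in each normoxia library (−1.17 ± 0.14, adjusted p = 9.69e-05, limma), and ZNF814 (−0.85), ZNF317 (−0.63) and ZNF57 (−0.53) with it. At matched depth ZNF607 (adjusted p = 0.0986, limma) and ZNF57 (adjusted p = 0.0787, limma) were not called. Over the list, 6 of 98 then rose and 11 fell, where 5.72% and 6.13% of all loci did, and with no filter 10 of 243 rose and 16 fell, where 6.07% and 6.19% did.

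With hypoxia in Raf-active cells, 33 of 117 ZNF loci fell (28.2%) and 6 rose (5.13%), where 14.1% of all tested loci fell and 13.0% rose. Of other chromosome 19 loci, 167 of 904 fell (18.5%) and 27 rose, and of ZNF loci on other chromosomes 32 of 184 fell (17.4%). The median log2 change was −0.17 for chromosome 19 ZNF loci and −0.10 for other chromosome 19 loci. Scaled to chromosome 19 alone, 19 ZNF loci fell and 12 rose with a median of −0.05, and at matched depth 17 of 98 fell (17.3%) and 7 rose, where 12.4% of all loci fell and 12.2% rose. In other chromosome 19 loci 17.5% then fell, so the ZNF share that fell was above theirs on full lists and not at matched depth. With no filter 15 of 243 ZNF loci rose and 52 fell, where 13.5% and 13.3% of all loci did.

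ZNF8 had 2, 2, 3 and 2 peaks in Raf-active hypoxia against 6, 6, 5 and 6 in Raf-active normoxia (−1.01 ± 0.10, adjusted p = 4.48e-06, limma). ZNF780B had 2, 3, 3 and 4 against 7, 7, 7 and 6 (−0.92), ZNF20 had 4, 3, 3 and 3 against 8, 7, 7 and 7 (−0.91) and ZNF555 had 3, 3, 2 and 3 against 6, 5, 5 and 6 (−0.75). None of these groups overlapped, but ZNF20 was not called at matched depth (−0.36, adjusted p = 0.0637, limma). The 4 rises named by the rule, of 6 called, were ZNF233 (0.80), ZNF599 (0.80), ZNF536 (0.63) and ZNF175 (0.56). ZNF536 had 16, 17, 13 and 15 peaks in hypoxia against 10, 9, 9 and 11 in normoxia. Its gains included a region 423 kb from the start that was in 4 of 4 Raf-active hypoxia and 0 of 4 Raf-active normoxia libraries. That region was also in 1 of 4 Raf-inactive hypoxia and 2 of 4 Raf-inactive normoxia libraries.

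The Raf change differed between oxygen levels at 23 ZNF loci by the interaction term, which subtracts the normoxia change from the hypoxia change. It was lower in hypoxia at 19 (16.2%) and higher at 4 (3.42%), where 9.1% of all tested loci were lower and 9.16% higher. Of other chromosome 19 loci, 85 were lower (9.40%) and 25 higher. At matched depth 7 of 98 ZNF loci were lower (7.14%) and 6 higher, where 7.69% and 8.23% of all loci were, and with no filter 32 of 243 were lower and 11 higher, where 8.99% and 9.34% were. The most negative values were at ZNF780B (−1.56 ± 0.16, adjusted p = 1.65e-05, limma), ZNF8 (−1.15 ± 0.15, adjusted p = 0.000108) and ZNF91 (−0.98 ± 0.12, adjusted p = 0.000101). At ZNF780B the 3 regions upstream of the start were in 4 of 4 Raf-active normoxia libraries and in 0, 3 and 0 of 4 Raf-active hypoxia libraries. At ZNF91 the value came from the Raf-inactive cells, which had 3 or 4 peaks in hypoxia and 1 in normoxia, while Raf-active cells had 4 or 5 in both. Of the 4 positive values, the 3 named by the rule were at ZNF233 (0.66 ± 0.17, adjusted p = 0.0121, limma), ZNF562 (0.59) and ZNF175 (0.51). The calls of ZNF562 and ZNF175 were each lost without 12 of the 16 libraries taken singly, and that of ZNF562 also at matched depth (0.44, adjusted p = 0.162, limma).

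Along the chromosome 239 of the 250 genes fell into 11 clusters, runs of at least 3 members whose starts lie no more than 500 kb apart. The cluster from ZNF101 to ZNF254, chr19:19668153-24129968, holds 37 members in 4.46 Mb and includes all 7 ZNF genes with no peak. It had 80.8 ± 1.71 peaks in Raf-active hypoxia, 74.5 ± 3.32 in Raf-inactive hypoxia, 78.0 ± 3.46 in Raf-active normoxia and 72.8 ± 3.50 in Raf-inactive normoxia (SD, n = 4 each). The Raf groups overlapped in normoxia, with ratios of 1.07 in normoxia and 1.08 in hypoxia on full lists, but 0.979 and 1.03 at matched depth. Its density of 16.3 to 18.1 peaks per Mb was below that of every other cluster, and 4 of its 37 members passed the limit for testing. Cluster counts include peaks within 10 kb outside the cluster, but the length used for density does not, which raises the density of short clusters most. The starts of 26 of its 29 members with a known strand nevertheless had a peak in 16 of 16 libraries.

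The other 10 clusters had more peaks with Raf in normoxia, by ratios of 1.22 to 2.50 on full lists and 1.12 to 1.83 at matched depth, where the groups of the cluster from ZNF302 to ZNF792 met at 18 peaks. The largest cluster, ZNF264 to ZNF446 at the end of the long arm with 43 members, had 157 ± 5.42 peaks in Raf-active normoxia and 92 ± 2.94 in Raf-inactive normoxia. The 3 genes ZNF546, ZNF780B and ZNF780A had 11.3 ± 0.500 against 4.50 ± 0.577 peaks in normoxia, a ratio of 2.50, but 7 ± 0.816 against 6.75 ± 0.500 in hypoxia, a ratio of 1.04. Matched in depth these ratios were 1.83 and 0.852. The cluster from ZNF414 to ZNF846 had more peaks with Raf at both oxygen levels, with 98.0 ± 4.69 against 52.3 ± 0.957 in hypoxia, a ratio of 1.88, and 100.0 ± 5.83 against 61.3 ± 2.22 in normoxia, a ratio of 1.63, which were 1.63 and 1.40 at matched depth.

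**Figure D4:**
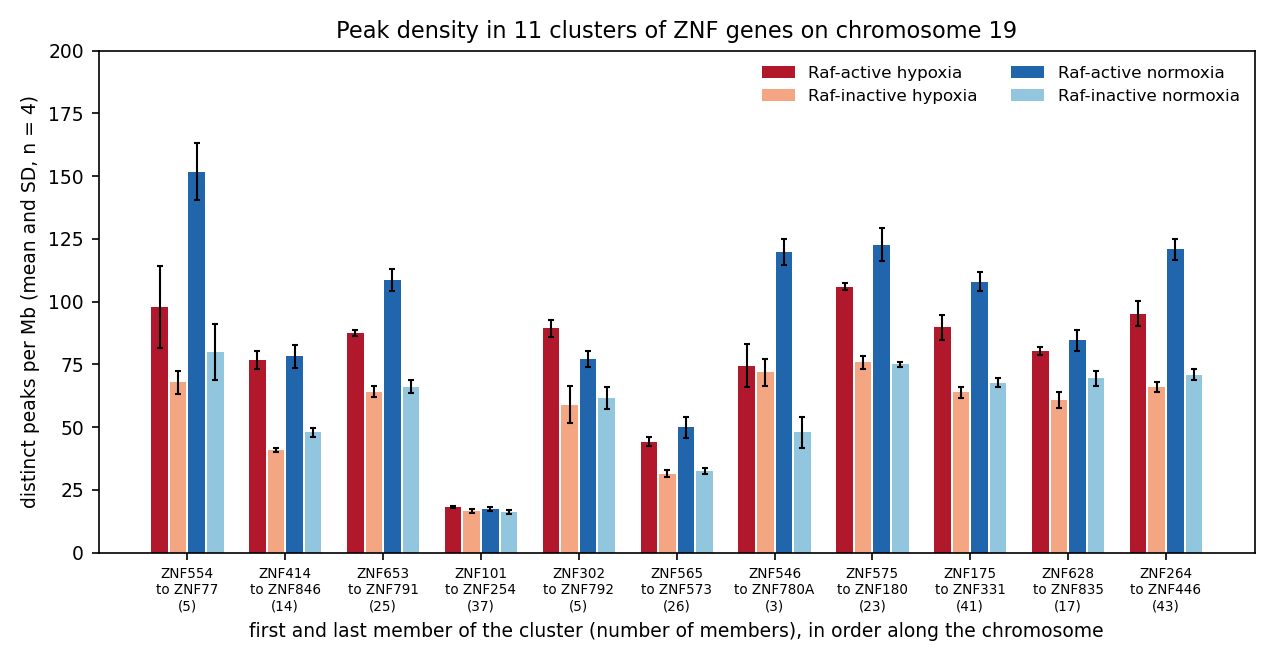
Distinct peaks per Mb (y axis; bars are means of 4 libraries and error bars the SD, unscaled) in the 11 clusters of ZNF genes in their order along chromosome 19 (x axis, number of members in brackets). The cluster from ZNF101 to ZNF254 lies at 16.3 to 18.1 peaks per Mb in all groups, and the other clusters are higher in Raf-active than Raf-inactive normoxia on these full lists. Counts include 10 kb on each side of a cluster and the length does not, which raises the density of short clusters most.

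Peaks of the 16 lists were merged into regions, of which 964 in ZNF loci were seen in at least 2 libraries. Of these, 374 (38.8%) were in all 16 libraries. With Raf in normoxia 202 regions were gained, that is present in 4 of 4 Raf-active and 0 of 4 Raf-inactive libraries, and 30 were lost. On full lists these were 20.95% and 3.11% of the ZNF regions, near the 20.4% and 2.03% of the 6220 regions in other chromosome 19 loci. With Raf in hypoxia 135 were gained (14.0%) and 24 lost (2.49%), against 17.4% and 1.59% in other loci. The gains with Raf were 119 in normoxia and 87 in hypoxia at matched depth, and 84 and 62 among peaks with a fold enrichment of at least 5. Hypoxia with Raf inactive gained 3 and lost 13, but gained 9 and lost 6 with a fold of at least 5, so the direction depends on the peak threshold. Hypoxia with Raf active gained 19 and lost 77. Those 77 were 7.99% of the ZNF regions, against 286 (4.60%) in other chromosome 19 loci, and the number lost was 44 at matched depth and 26 with a fold of at least 5. Losses in other loci were not counted in these 2 settings, so the difference in shares is known on full lists only. Gained regions were weak: ranked within their list by the caller's p, the 202 had a median percentile of 30.8, against 91.9 for the 374 regions present throughout. A region present throughout must be called in all 16 lists, and a gained one missed in 4 lists of lower background. The order of these 2 ranks is thus largely set by the definitions. Other chromosome 19 loci had medians of 40.6 for gained regions and 78.0 for those present throughout.

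Of the 202 regions gained with Raf in normoxia, 87 (43.1%) were also in 4 of 4 Raf-active hypoxia libraries and 66 (32.7%) in 0. In other chromosome 19 loci 717 of 1268 (56.5%) were in 4 and 227 (17.9%) in 0. At matched depth 47 of 119 ZNF regions (39.5%) were in 4 and 36 (30.3%) in 0, against 544 (54.8%) and 188 (18.95%) of 992. Regions of a list are not replicates, so these shares carry no test. The gained ZNF regions also ranked lower in their lists, at a median percentile of 30.8 against 40.6 on full lists. The part of peak strength in these shares was not tested.

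**Figure D5:**
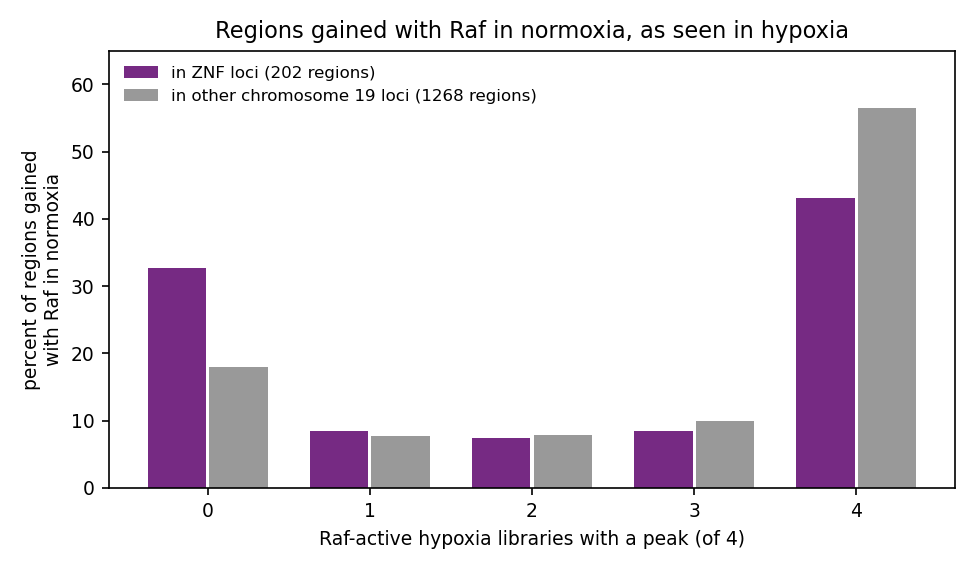
Percent of the regions gained with Raf in normoxia (y axis) by the number of Raf-active hypoxia libraries that hold a peak there (x axis), for 202 regions in ZNF loci and 1268 in other chromosome 19 loci. More of the ZNF regions are in 0 libraries, 32.7% against 17.9%, and they also rank lower in their lists (median percentile 30.8 against 40.6).

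The strongest gained regions by the lowest p over their libraries were in ZNF552 (chr19:57812207-57812703) and beside ZNF414 (chr19:8517502-8518346) with Raf in normoxia, and in ZNF490 (chr19:12592498-12593122), in its body, with Raf in hypoxia. The region in ZNF552 was in 4 of 4 Raf-active normoxia and 1 of 4 Raf-active hypoxia libraries, with a fold enrichment of 9.90 to 11.5 in the authors' lists. That in ZNF490 was in all 8 Raf-active and 0 Raf-inactive libraries. The strongest lost regions were those beside ZNF416 (chr19:57587477-57587968) and in ZNF254 (chr19:24069783-24070609), which were in all 8 Raf-inactive and 0 Raf-active libraries.

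A set of 14 members with a described role were followed in every comparison, of which 7 could be tested. ZNF274, whose protein brings SETDB1 to the ends of ZNF genes, was under the limit, with 3 peaks in each Raf-active normoxia library against 1 in each Raf-inactive one, and 3, 3, 3 and 5 against 1 in each in hypoxia. ZNF93, a repressor of L1 elements, was also under it, with 2, 1, 1 and 1 against 2, 3, 2 and 4 in normoxia. ZNF154, a gene often methylated in tumours, had 4, 3, 2 and 3 against 1, 1, 1 and 2. The normoxia groups of ZNF274 did not overlap, those of ZNF154 met at 2 peaks and those of ZNF93 overlapped. ZNF382, ZNF649, ZNF675 and ZNF350 had between 1 and 4 peaks in every library.

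Among the tested ones ZNF331, an imprinted gene, changed with Raf by −0.37 in normoxia and −0.46 in hypoxia, with 11, 11, 9 and 9 peaks against 11 in each normoxia library before scaling. Unscaled the normoxia fall was not called (−0.13, adjusted p = 0.0930, limma). ZNF582 changed by −0.62 in normoxia (adjusted p = 0.00881, limma), where its groups overlapped, and lost that call unscaled (adjusted p = 0.0531, limma). ZNF224, a repressor of the aldolase A gene, changed by −0.27 in normoxia and lost that call without Raf-inactive normoxia replicate 1, 2 or 4 or Raf-active normoxia replicate 2 or 4 (adjusted p up to 0.162, limma). ZNF160, a repressor of TLR4, rose by 0.51 with Raf in hypoxia (adjusted p = 0.0103, limma), a call lost with scaling to chromosome 19. ZNF765 changed by −0.33 with Raf in hypoxia, a call lost unscaled (−0.10). ZNF304, described as a silencer of the INK4-ARF locus in tumour cells, was called in no comparison, with log2 changes of −0.28 and −0.12 with Raf in normoxia and hypoxia (adjusted p = 0.0780 and 0.459, limma).

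The genes through which KRAB zinc finger proteins act were also counted, as a list of 25 of which 24 were tested. With Raf in normoxia 13 rose (54.2%) and 7 fell (29.2%), where 37.2% and 25.9% of all tested loci did, and the median log2 change was 0.34 against 0.10 for all. In hypoxia 7 rose (29.2%) and 6 fell (25%), close to the 33.5% and 26.6% of all loci. With hypoxia in Raf-active cells 0 rose and 7 fell (29.2%), where 13.0% and 14.1% of all loci did. In Raf-inactive cells 0 rose and 2 fell (8.33%), where 6.0% and 6.76% did. The interaction was lower at 5 (20.8%) and higher at 0, where 9.1% and 9.16% of all loci were. TRIM28, the gene of KAP1, had log2 changes of −0.03 and −0.17 with Raf in normoxia and hypoxia, neither called. SETDB1 rose by 0.53 with Raf in normoxia (adjusted p = 0.000138, limma), at 7.42 ± 0.674 against 4.86 ± 0.660 scaled peaks, but had 0.12 in hypoxia, and its interaction was −0.41 (adjusted p = 0.0428). CBX1 (0.78), CBX5 (0.45) and CBX3 (0.39), the HP1 genes, rose in normoxia. With Raf in hypoxia CBX1 (0.28) and CBX3 (0.49) rose, and CBX5 had −0.28, which was not called. The interaction was called at CBX1 (−0.50) and CBX5 (−0.73) and not at CBX3 (0.09).

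Larger falls were at other genes of the list. HDAC2, a histone deacetylase of the NuRD complex, had 2.26 ± 0.917 scaled peaks in Raf-active normoxia against 11.1 ± 0.557 in Raf-inactive normoxia (−1.94 ± 0.18, adjusted p = 6.51e-08, limma) and 0.932 ± 0.0165 against 10.1 ± 1.97 in hypoxia (−2.50). SMARCAD1, a remodeller that binds KAP1, had 0.902 ± 0.0314 against 5.94 ± 1.13 in normoxia (−1.86) and 0.932 ± 0.0165 against 7.85 ± 1.56 in hypoxia (−2.18). PPHLN1, a HUSH complex gene, changed by −1.07 and −0.50. DNMT1, the maintenance DNA methyltransferase, had Raf changes of −0.40 in hypoxia and 0.43 in normoxia, both called, with 4.66 ± 0.752 scaled peaks in Raf-active hypoxia against 6.46 ± 1.10 in Raf-inactive hypoxia, and 8.32 ± 0.944 in Raf-active normoxia against 5.94 ± 0.614 in Raf-inactive normoxia. Its interaction was −0.82 ± 0.16 (adjusted p = 0.00283, limma).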

How the data were processed

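The authors deposited 1 narrowPeak list per ATAC-seq library, 16 in all, with replicates not pooled. The submitters' processing notes name, in no order, MACS2, Bowtie2, cutadapt, bedtools, deepTools, Picard, SAMtools and FastQC, and the build hg38; versions, settings and any mapping-quality filter are not given in the sources used here. Each deposited line holds a score (10 times the −log10 q, rounded down), the summit's enrichment as a fold over local background, and the authors' −log10 p and −log10 q. These depend on depth and were used only to filter, rank or describe peaks within a list.

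An interval listed on several lines counted as 1 peak. Genes, strands and promoters came from RefSeq GRCh38.p14, matched by symbol; a strand was found for 219 of 250 members. Peaks with a summit in a gene body or within 10 kb of it were counted, scaled to the same total over loci, taken as log2 of the number plus 1, and fitted in limma 3.58.1 (R 4.3.3) over all 16 libraries and 4 group means, with a filter of a mean of 3 scaled peaks. The fit was tested on simulated data. For matched depth, pileups recovered from fold and p were thinned to the lowest background and peaks with a −log10 p of at least 5 kept. Promoters were aligned globally in Biopython 1.88. Other steps used Python 3.11.15 with pandas 2.3.3 and numpy 2.4.6.

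Named members were, where a locus was called and its groups stood apart in scaled peaks, the 6 largest rises and falls for each Raf comparison, 4 for each hypoxia comparison and 3 for the interaction, plus 14 with a described role. The 9 loci whose regions are described, the regions with the lowest p and the 5 promoters were chosen after their values were seen. The members and lists were chosen with earlier results of these data known. Position was split at the midpoint of the gene in place of the last exon, since exons were not used here. Same-numbered replicates did not deviate together (correlations of −0.0388 to 0.0153), so the numbers do not pair samples and no block entered the fit. Alternatives covered peak threshold, window, scaling, filter, pseudocount, depth, summits, shared peaks, samples in the fit, variance model, block and each library left out.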

Additional observations from a re-analysis of the deposited data

Results flagged for a closer look

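The groups of 4 libraries at the named ZNF loci whose counts differed by at least 2 peaks were examined for 1 library far from the others. The total and share of ZNF peaks in each group were examined too (50 values in all). The limit used is meant to flag about 1 in 20 by chance, but that rate does not hold for these small counts. A group is flagged whenever the other libraries hold the same count, as in each case below. ZNF587 had 7 peaks in Raf-active hypoxia replicate 2, against 5 in the others. ZNF274 had 5 in Raf-active hypoxia replicate 4, against 3. ZNF317 had 8 in Raf-active hypoxia replicate 3, against 5. ZNF582 had 5 in Raf-inactive hypoxia replicate 3, against 3. ZNF765 had 6 in Raf-active normoxia replicate 4, against 8. ZNF787 had 12 in Raf-inactive normoxia replicate 1, against 9, and ZNF57 had 5 in Raf-inactive normoxia replicate 2, against 3.

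The Raf change differed between hypoxia and normoxia by the interaction term of limma (adjusted p below 0.05) at 7 named loci. It was higher in hypoxia at ZNF233 (0.66), ZNF562 (0.59) and ZNF175 (0.51), and lower in hypoxia at ZNF780B (−1.56), ZNF8 (−1.15), ZNF91 (−0.98) and ZNF765 (−0.49). At ZNF562 and ZNF175 the call was lost without 12 of the 16 libraries taken singly, at ZNF562 also at matched depth (0.44), and at ZNF765 with only peaks of at least 5-fold enrichment (−0.01).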

How the results depend on the processing

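Counts of ZNF loci are given as higher and lower, first for Raf in normoxia and then for Raf in hypoxia. Shares over all tested loci stand in the sections above for the main fit, matched depth and no filter. For the other settings here and below no such share is printed. Those counts thus do not show whether ZNF loci differ from the rest. They were 28 and 3, then 25 and 5, with a fold of at least 5; 17 and 5, then 12 and 6, in gene bodies alone; 27 and 35, then 18 and 47, scaled to chromosome 19. Without the filter on low values they were 106 and 44, then 69 and 49, of 243 loci. Of those lower, 22 and 24 had no lower unscaled mean, so these falls come from the scaling of loci with few peaks. With distinct summits 35 and 38 were lower, with peaks of 1 locus only 23 and 5, then 20 and 4. Unscaled 5 were lower in normoxia, and 74 were higher and 4 lower in hypoxia. At matched depth 6 were lower in hypoxia. For hypoxia with Raf inactive the counts were 1 and 6 in gene bodies, 3 and 7 with peaks of 1 locus, 4 and 9 in a fit of 8 libraries, 12 higher with summits and 1 lower with a fold of at least 5. For hypoxia with Raf active they were 2 and 12 in gene bodies, 12 and 19 scaled to chromosome 19, 15 and 52 with no filter, 3 and 10 with peaks of 1 locus, 16 higher with summits, 17 lower with a fold of at least 5 and 17 lower at matched depth. For the interaction they were 11 higher scaled to chromosome 19, 11 and 32 with no filter, 10 higher with summits, 2 and 7 with peaks of 1 locus, 7 lower in gene bodies and 7 lower at matched depth. Fewer loci were tested with a fold of at least 5 (54), in gene bodies (30), with peaks of 1 locus (36) and at matched depth (98).

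The ZNF share of chromosome 19 locus peaks in Raf-active hypoxia, Raf-inactive hypoxia, Raf-active normoxia and Raf-inactive normoxia was 14.9%, 16.6%, 14.97% and 16.01% with a fold of at least 5, 11.4%, 14.3%, 10.8% and 13.8% in gene bodies, 13.0%, 14.8%, 13.1% and 14.5% at matched depth and 14.8%, 17.6%, 14.2% and 16.96% with summits. With a −log10 q of at least 5 it was 14.8% in Raf-inactive hypoxia and 14.6% in Raf-inactive normoxia. The share near gene starts at matched depth was 41.0%, 50.0%, 35.5% and 46.4%. Settings for regions and starts were added after the data were seen. With a fold of at least 5, 84 and 62 regions were gained with Raf in normoxia and hypoxia, 9 gained and 6 lost with hypoxia in Raf-inactive cells and 26 lost in Raf-active cells. At matched depth 119 and 87 were gained with Raf and 44 lost with hypoxia in Raf-active cells.

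ZNF846 (0.34) and ZNF787 (0.30, and 0.065 in hypoxia) turned positive with a fold of at least 5, and ZNF765 with Raf in normoxia (−0.18) and ZNF224 with Raf in hypoxia (−0.51) turned negative with summits; the cause was not tested. Leaving out each library gave 58 to 62 higher and 9 to 13 lower with Raf in normoxia, 2 to 4 higher for the interaction, and 4 to 6 regions gained with hypoxia in Raf-inactive cells, against 3. The replicate block gave 61 higher and 10 lower with Raf in normoxia and 39 and 12 in hypoxia, and moved no count by over 1.5 times. A locus with no listed peak was not detectably open at that depth.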

Other observations

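The 10 tested chromosome 19 genes of other zinc finger families (symbols starting with ZSCAN, ZFP, ZBTB, ZIM, ZIK or PEG3) had 6 rises and 1 fall with Raf in normoxia and the same counts in hypoxia, with median log2 changes of 0.48 and 0.35. Of all tested loci 37.2% rose and 25.9% fell in normoxia and 33.5% and 26.6% in hypoxia, and of other chromosome 19 loci 58.6% and 49.1% rose. Other protein-coding genes that lie inside the ZNF clusters had 24 of 40 rises and 3 falls with Raf in normoxia (median 0.27), and those outside had 506 of 864 rises and 50 falls (median 0.35). With hypoxia in Raf-active cells, 7 of the 40 inside fell, and 160 of the 864 outside. ZNF genes inside clusters had a median of −0.17 in that comparison over 107 tested, and the 10 tested outside clusters −0.22.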
